A study of Mus musculus with 8 samples.

Results

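The IL-6 family ligands Il6, Il11, Lif, Osm and Clcf1 and the receptors Il6ra, Il11ra1, Lifr, Osmr and Il6st were followed across 8 mouse tumors grown from 4T1 cells, a mammary carcinoma line of BALB/c mice. In 4 tumors the cells had been placed into the fourth mammary gland after it had received 20 Gy of X-rays once, locally (preirradiated). In the other 4 tumors the gland had not been irradiated (nonirradiated). All tumors had grown for 18 days, all mice were BALB/c, and no other agent or allele is named in the labels. The 4T1 cells themselves were not irradiated, since they were injected afterwards. Each tumor gave 1 array of whole-tissue RNA, and the labels do not say whether each came from a separate mouse, so p-values measure the spread between these tumors.

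The 10 genes were chosen by family, and for each the probe set with 1 gene symbol and the highest mean over the 8 arrays was to be selected; 9 of them were measured. No probe set was listed for Il11ra1 by symbol, Entrez ID or RefSeq accession, and it is not analysed here. The array table held 34760 probe sets, and 19937 genes had at least 1 probe set of their own. Each of the 9 had no other probe set, so the mean decided nothing. All 9 exceeded the study's own limit of a mean log2 signal of 4.0.

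Cytokines of this family share the signal-transducing chain gp130, encoded by Il6st. IL-6 and IL-11 first bind their own non-signaling alpha receptors, Il6ra and Il11ra1, and then join gp130. LIF signals through a pair of Lifr and gp130, mouse oncostatin M mainly through Osmr and gp130, and cardiotrophin-like cytokine (Clcf1) through Cntfr, Lifr and gp130. The engaged chains activate JAK kinases and STAT3, and Socs3 is induced as a brake. In tumors the family is known from fibroblasts, myeloid cells and carcinoma cells alike, with roles in inflammation, matrix production and tumor growth.

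Values are log2 robust multi-array average (RMA) signals, on which a step of 1.0 is a factor of 2.0. The arrays were close to each other, with correlations across probe sets of at least 0.991. Epcam, the epithelial adhesion molecule of carcinoma cells, lay between 9.07 and 10.17 in the 8 tumors, and Krt8, an epithelial keratin, between 12.45 and 12.63, so markers of the labelled epithelial carcinoma were present in every sample. The mean of 10 such markers was 9.31 in nonirradiated and 9.56 in preirradiated tumors. Of the 10, 9 were higher on average and 1 lower, and 3 were higher at an unadjusted limma p under 0.05, as 2.84% of all probe sets were. Preirradiated tumors 1 and 3 stood apart by muscle genes: the mean of 10 skeletal muscle markers was 9.20 and 10.58 there, and between 6.15 and 6.47 in the other 6 tumors. Of the 34738 probe sets tested with limma, 0% were called after Benjamini-Hochberg adjustment at 0.05 and 5.8% (2015) had an unadjusted p under 0.05. The smallest p an exact two-sided permutation of the 8 tumors allows is 0.0286. In whole tissue, fewer cells of a type and less RNA per cell cannot be told apart.

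Among the ligands and receptors, Il11 was higher in preirradiated tumors and the receptors Il6ra and Lifr were lower, each at an unadjusted p under 0.05, and none passed the adjusted threshold. Il11 and Il6ra had groups that did not overlap. The other 6 genes, including Il6 itself and the shared chain Il6st, differed by less than 0.17 in either direction. The 3 of 9 genes past the unadjusted limit stand beside 5.8% of all probe sets. The 2 of 9 with groups apart, 1 higher and 1 lower, stand beside 3.36% of all probe sets, 1.67% higher and 1.68% lower. None of the 9 passed the study's filter, which asks for a log2 change of 0.4 or more beside p up to 0.05, and which 0.642% of all probe sets passed. The median difference of the 9 genes was -0.036, against -0.00087 for all probe sets. The genes were chosen with earlier results of these tumors known, so neither count is independent evidence about the family.

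**Figure D1:**
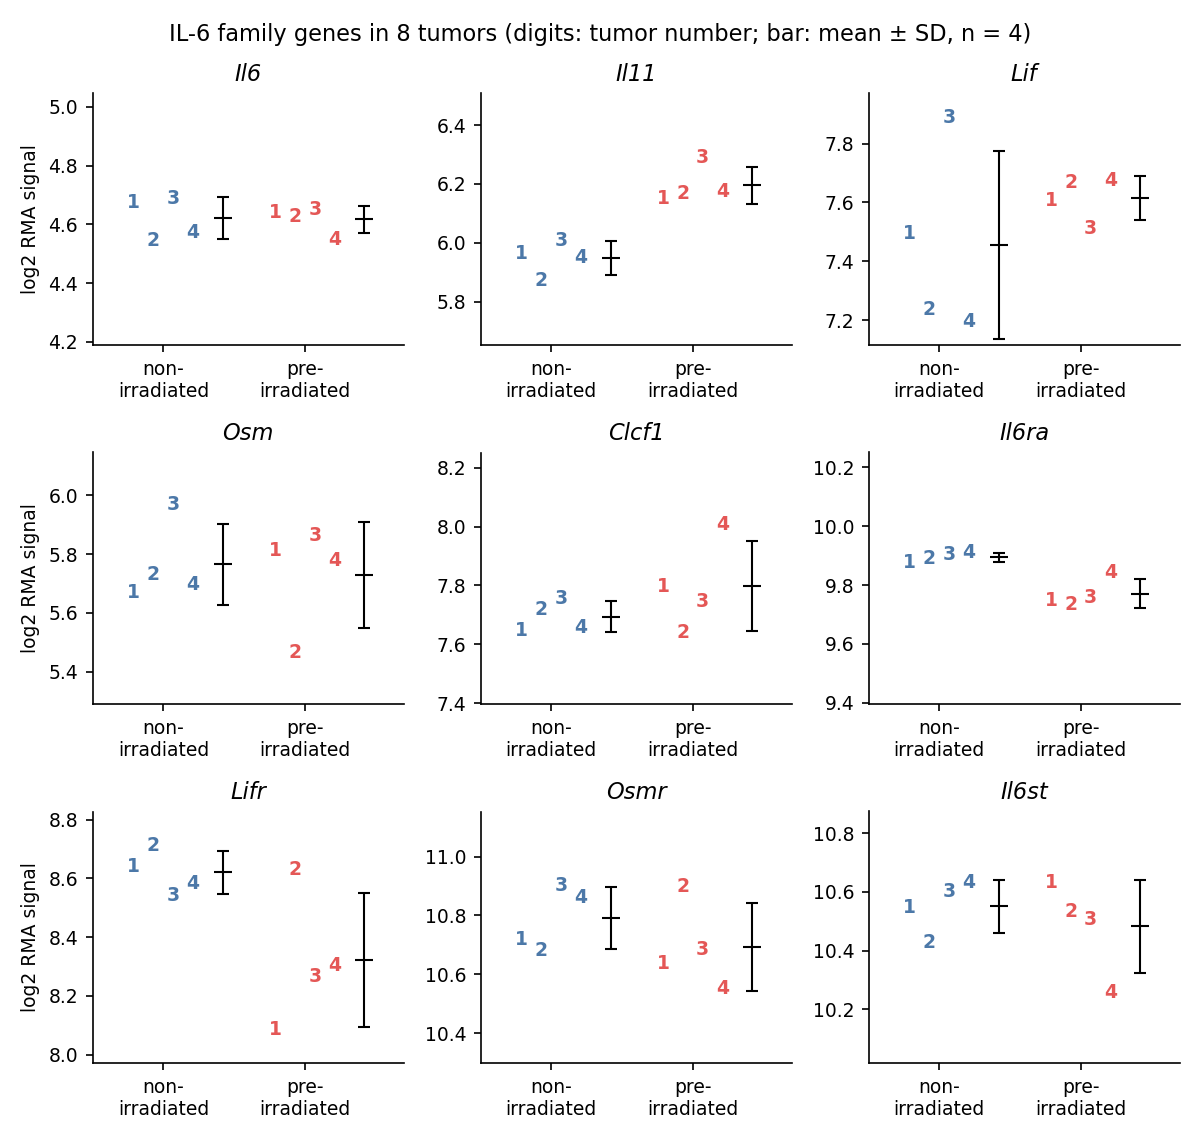
Log2 RMA signal of each of the 9 measured genes in the 4 nonirradiated (blue) and 4 preirradiated (red) tumors, each digit being the tumor number and each bar the group mean ± SD. All panels span the same number of log2 units. Only the Il11 and Il6ra groups are apart, and for Lifr preirradiated tumor 2 lies with the nonirradiated tumors.

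Il11 encodes interleukin 11, a cytokine of stromal and epithelial cells known for its actions on fibroblasts and on bone marrow. In nonirradiated tumors 1 to 4 its signal was 5.96, 5.87, 6.01 and 5.95. In preirradiated tumors 1 to 4 it was 6.15, 6.17, 6.29 and 6.17. Every preirradiated tumor lay above every nonirradiated tumor, with a gap of 0.14 between the groups, and preirradiated tumor 3 was the highest. The means were 6.20 ± 0.06 and 5.95 ± 0.06 (SD, n = 4 each), a difference of 0.25 (SE 0.047, 95% interval 0.14 to 0.35) or 1.19-fold. By limma p it ranked 34 of 34738 probe sets, but the adjusted p = 0.62 over all of them (exact permutation p = 0.0286, the smallest possible). The signal was low but above most silent genes: its mean exceeded 99.2% of 1194 olfactory and vomeronasal receptor genes, which a mammary tumor is not known to use. RMA compresses changes at such levels. Leaving out any tumor kept the difference between 0.22 and 0.27. The part of carcinoma cell content in the Il11 difference was not tested.

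The upstream sequences of Il11, Lif and Il6 are shown because Il11 is the ligand whose groups did not overlap and all of them hold the same motif there. Each is the 250 bases before an annotated start, from RefSeq on GRCm38.p6, 5′ to 3′ on the gene's strand, with capitals marking matches to the motifs searched. The stretches are chr7:4778142-4778391 (minus strand) for Il11, which has 1 further annotated start, chr11:4257318-4257567 (plus strand) for Lif and chr5:30012864-30013113 (plus strand) for Il6.
Il11: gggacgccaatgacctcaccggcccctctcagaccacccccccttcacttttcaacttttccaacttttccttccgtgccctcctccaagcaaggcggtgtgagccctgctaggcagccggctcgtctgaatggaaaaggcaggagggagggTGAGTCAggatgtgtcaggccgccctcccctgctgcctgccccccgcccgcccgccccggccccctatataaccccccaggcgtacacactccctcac
Lif: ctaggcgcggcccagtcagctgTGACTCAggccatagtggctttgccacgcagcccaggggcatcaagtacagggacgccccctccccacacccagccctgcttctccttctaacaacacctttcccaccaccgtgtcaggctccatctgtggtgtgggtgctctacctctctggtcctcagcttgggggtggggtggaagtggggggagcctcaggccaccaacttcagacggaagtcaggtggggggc
Il6: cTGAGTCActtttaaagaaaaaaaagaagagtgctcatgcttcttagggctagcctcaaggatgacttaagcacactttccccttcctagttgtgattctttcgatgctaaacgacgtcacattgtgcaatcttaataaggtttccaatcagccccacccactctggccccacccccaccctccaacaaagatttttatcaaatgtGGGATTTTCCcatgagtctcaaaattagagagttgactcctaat
The capitals in Il11 and Lif, and the first in Il6, match TGANTCA, the core that AP-1 factors bind. The match begins 98 bases before the Il11 start, 228 before the Lif start and 249 before the Il6 start. The second run of capitals in Il6 matches a form of the NF-kB core, 44 bases before the start. Windows of 300 bases, 250 before to 50 after a start, were found for 8 of the 10 genes, 11 windows in all; Osm and Clcf1 had none. TGANTCA was present in 4 of the 11, namely 1 window each of Il11, Lif, Il6 and Osmr, and in 7.81% of 32851 windows of all genes. The window of the further Il11 start held 0 matches to the motifs searched. The NF-kB form was present in 1 of the 11 and in 1.20% of all. TTCNNNGAA, the core that STAT factors bind, was in 0 of the 11 and in 8.30% of all, and TGACGTCA, the CRE core, was in 0 of the 11 and in 1.79% of all. Both strands were searched, and none of the matches overlapped another. A match describes letters in this window and does not show binding.

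Lif, leukemia inhibitory factor, was the most variable of the genes in nonirradiated tumors. Its signal there was 7.50, 7.24, 7.89 and 7.19, and in preirradiated tumors 7.61, 7.67, 7.51 and 7.67. The preirradiated tumors lay close together inside the wide nonirradiated range, below nonirradiated tumor 3 and above the other 3. The difference was 0.16 (SE 0.14, 95% interval -0.17 to 0.49; adjusted p = 0.952, exact permutation p = 0.343). It depended on nonirradiated tumor 3, without which the difference was 0.31, past the unadjusted limit, and without nonirradiated tumor 4 it was 0.074. Nonirradiated tumor 3 also had the highest neutrophil marker mean of the 8, at 8.07 against 7.13 to 7.79 in the others. Lif did not keep the order of these means elsewhere. Preirradiated tumor 3, at 7.79 in these markers, was the lowest of its group in Lif, and nonirradiated tumor 4, at 7.53, the lowest of the 8. The part of neutrophil content in the Lif signal was not tested.

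Osm encodes oncostatin M, a cytokine made chiefly by neutrophils, macrophages and T cells. It measured 5.67, 5.73, 5.97 and 5.70 in nonirradiated and 5.81, 5.47, 5.86 and 5.78 in preirradiated tumors. The groups overlapped, with the highest value in nonirradiated tumor 3 and the lowest in preirradiated tumor 2. The difference was -0.036 (SE 0.10, 95% interval -0.27 to 0.20; adjusted p = 0.99, exact permutation p = 0.80). The tumors at the extremes were also those at the extremes of 10 neutrophil markers, whose mean was 8.07 in nonirradiated tumor 3 and 7.13 in preirradiated tumor 2 and ran from 7.13 to 8.07 in nonirradiated and from 7.13 to 7.79 in preirradiated tumors. Of these markers 7 were lower and 3 higher on average in preirradiated tumors. Nonirradiated tumor 2 was as low in these markers, at 7.13, but not in Osm, at 5.73. The part of neutrophil content in the Osm signal was not tested.

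Clcf1, the cardiotrophin-like ligand, measured 7.65, 7.72, 7.76 and 7.66 in nonirradiated and 7.80, 7.64, 7.75 and 8.01 in preirradiated tumors. Preirradiated tumors 1 and 4 lay above all nonirradiated tumors and preirradiated tumor 2 just below them. The difference was 0.10 (SE 0.075, 95% interval -0.069 to 0.28; adjusted p = 0.923, exact permutation p = 0.286), and without preirradiated tumor 4 it was 0.034.

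Il6, the founding cytokine of the family, was near background. Its mean of 4.62 exceeded no more than 38.0% of the olfactory and vomeronasal receptor genes. The 8 tumors lay between 4.55 and 4.69, with a difference of -0.0038 (SE 0.047, 95% interval -0.11 to 0.10; adjusted p = 0.999). At this signal a change in Il6 was not detectable on these arrays, and the interval bounds only the compressed RMA signal.

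**Figure D2:**
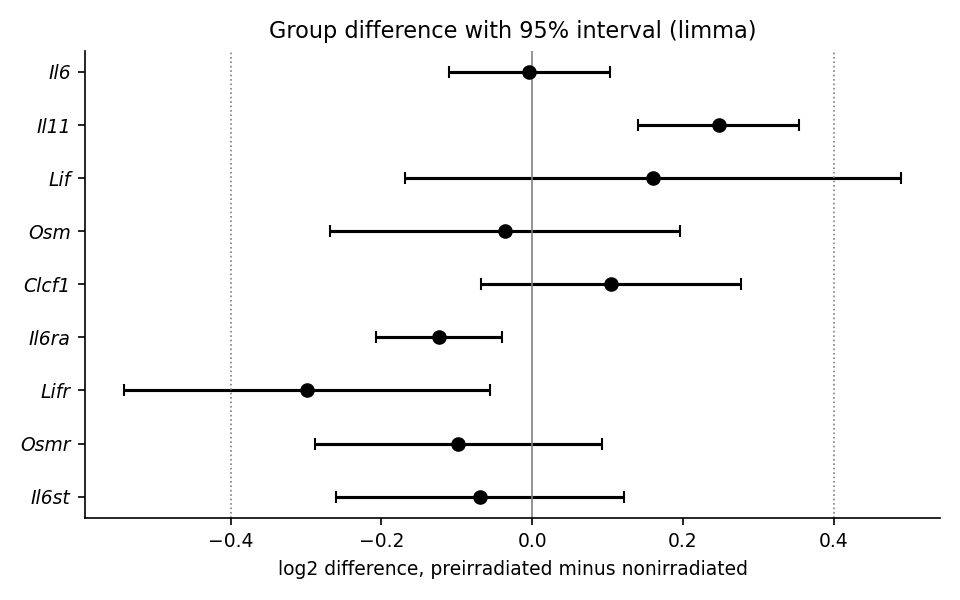
Preirradiated minus nonirradiated difference (log2, x axis) of each gene, with its 95% interval from limma; dotted lines mark the study's change limit of 0.4 in either direction. The intervals of Il11, Il6ra and Lifr leave out 0, before any adjustment for the 34738 probe sets tested.

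Il6ra, the alpha receptor that makes a cell responsive to IL-6, was the steadiest of the genes. It measured 9.88, 9.89, 9.90 and 9.91 in nonirradiated and 9.75, 9.73, 9.76 and 9.84 in preirradiated tumors. All preirradiated tumors lay below all nonirradiated tumors, but preirradiated tumor 4 was within 0.034 of the lowest of them. The means were 9.77 ± 0.05 and 9.89 ± 0.02 (SD, n = 4 each), a difference of -0.12 (SE 0.036, 95% interval -0.21 to -0.041). The nonirradiated mean was thus 1.09-fold the preirradiated mean (adjusted p = 0.763, exact permutation p = 0.0286). The SD within groups was 0.036, and no more than 6.86% of all probe sets had a smaller one. Il6ra is carried by macrophages, neutrophils and T cells among others. The mean of 10 macrophage markers ran from 10.33 to 10.48 in nonirradiated and from 10.07 to 10.31 in preirradiated tumors, and all 10 were lower on average, 5 of them at an unadjusted p under 0.05. The mean of 9 T and NK cell markers ran from 6.20 to 6.68 and from 5.82 to 6.37. All 9 were lower on average, 1 of them at an unadjusted p under 0.05. Of 10 neutrophil markers 7 were lower and 3 higher on average, and 1 was lower at that limit. Of all probe sets 2.97% were lower at that limit, and 49.5% had a higher mean in preirradiated tumors. The part of these cells in the Il6ra difference was not tested. Il6ra stayed past the unadjusted limit without any 1 tumor. It differed by -0.11 without both preirradiated tumors 1 and 3, and by -0.11 with the mean of 10 fibroblast markers as a covariate, and missed the unadjusted limit in both fits.

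Lifr, the signaling receptor of LIF, showed the largest difference of the 9. It measured 8.64, 8.71, 8.54 and 8.58 in nonirradiated and 8.09, 8.63, 8.27 and 8.30 in preirradiated tumors. Preirradiated tumors 1, 3 and 4 lay below all nonirradiated tumors, whereas preirradiated tumor 2 lay among them. The means were 8.32 ± 0.23 and 8.62 ± 0.07 (SD, n = 4 each), a difference of -0.30 (SE 0.11, 95% interval -0.54 to -0.056), or 1.23-fold lower (adjusted p = 0.812, exact permutation p = 0.0857). The unadjusted call was lost when any of 3 tumors was left out, namely preirradiated 1 (-0.22), preirradiated 3 (-0.28) and nonirradiated 2 (-0.27). Without preirradiated tumor 2 the difference was -0.40, and Lifr then passed the study's filter. Without both muscle-rich tumors it was -0.15, and with the muscle marker mean as a covariate -0.18, neither past the unadjusted limit.

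Within the preirradiated group Lifr ran opposite to fibroblast and to adipocyte markers. Preirradiated tumors 1, 3, 4 and 2 had fibroblast marker means of 10.24, 10.17, 9.96 and 9.93, in the reverse order of their Lifr values. Their adipocyte marker means of 8.27, 7.04, 6.72 and 6.50 had the same order. Nonirradiated tumors had fibroblast means of 9.63 to 9.84, below all preirradiated tumors. In nonirradiated tumors 1 to 4 the fibroblast means were 9.63, 9.84, 9.84 and 9.79, with Lifr at 8.64, 8.71, 8.54 and 8.58. Nonirradiated tumors 2 and 3, level in fibroblast markers, were the highest and the lowest of their group in Lifr. The adipocyte means of nonirradiated tumors 1 to 4 were 6.45, 6.83, 6.31 and 6.37, in the same order as Lifr and not the reverse. Fibroblast and adipocyte markers are 2 of 9 marker lists, and their order over 4 tumors was not tested. Of the 10 fibroblast markers 9 were higher on average in preirradiated tumors. With the fibroblast mean as a covariate Lifr differed by -0.029 and lost its unadjusted call, while Il11 differed by 0.23 and kept it. The covariate itself separates the groups, so this fit cannot tell the bed from the fibroblast content.

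**Figure D3:**
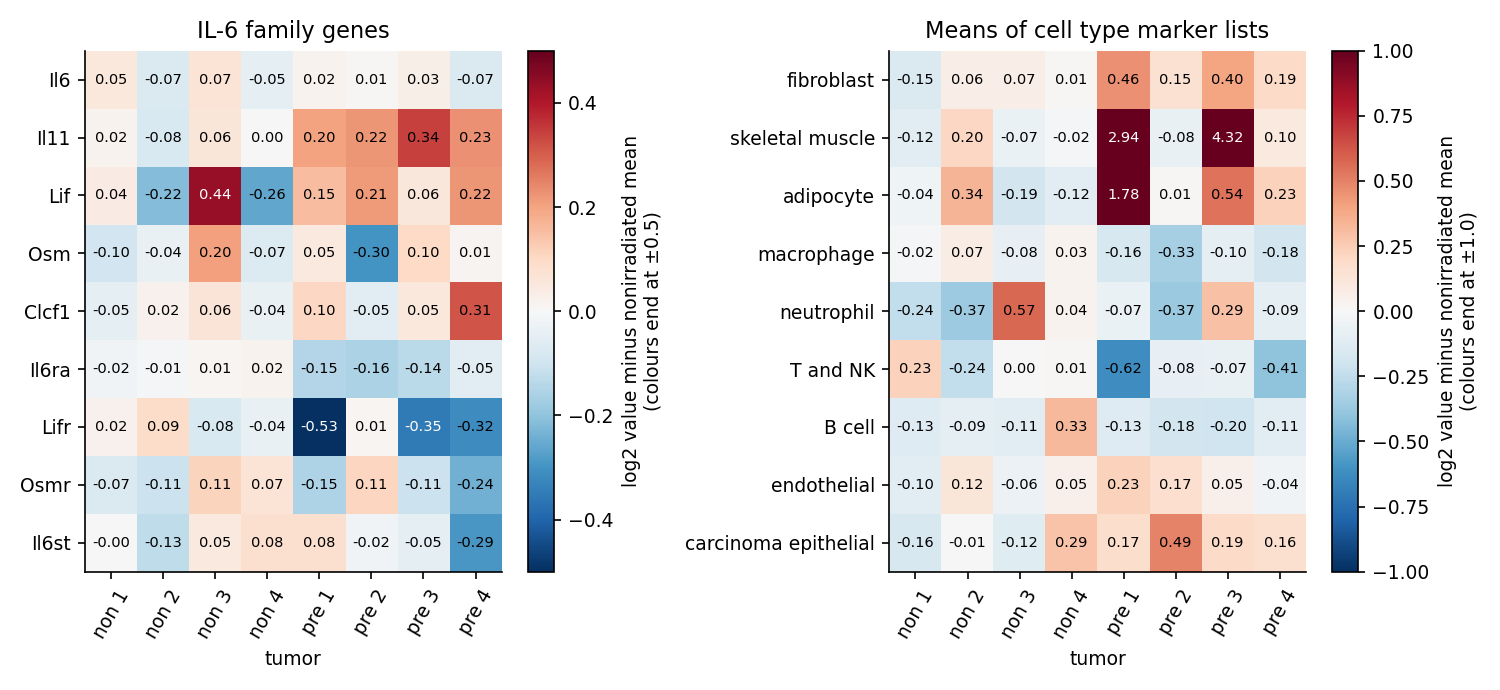
Log2 value in each tumor minus the nonirradiated mean, for the 9 genes (left) and for the means of 9 cell type marker lists (right); columns are tumors (non, nonirradiated; pre, preirradiated), and the 2 colour scales differ. Lifr is lowest in preirradiated tumor 1, where fibroblast and adipocyte markers are highest, and Lif, Osm and neutrophil markers are all highest in nonirradiated tumor 3. In the other tumors Lif does not keep the order of the neutrophil markers.

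Osmr, the main oncostatin M receptor, measured 10.72, 10.68, 10.90 and 10.86 in nonirradiated and 10.64, 10.90, 10.68 and 10.55 in preirradiated tumors. The groups overlapped, and the difference was -0.098 (SE 0.083, 95% interval -0.29 to 0.093; adjusted p = 0.946, exact permutation p = 0.314). Without preirradiated tumor 2, the highest of its group, it was -0.17, past the unadjusted limit. Il6st, the gp130 chain shared by all members, measured 10.55, 10.43, 10.60 and 10.63 in nonirradiated and 10.63, 10.53, 10.50 and 10.26 in preirradiated tumors. Preirradiated tumor 4 was the lowest of the 8 and preirradiated tumor 1 level with nonirradiated tumor 4 at the top. The difference was -0.069 (SE 0.083, 95% interval -0.26 to 0.12; adjusted p = 0.970, exact permutation p = 0.543), and 0.0052 without preirradiated tumor 4.

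All 4 measured receptor chains had a lower mean in preirradiated tumors, and of the 5 ligands 3 had a higher one. Of these 7 only Il11, Il6ra and Lifr passed an unadjusted p of 0.05, the background to which was 2.84% of probe sets higher and 2.97% lower. Of all probe sets 49.5% had a higher mean in preirradiated tumors, so these directions describe few genes and were not tested. Il6st was not lower without preirradiated tumor 4 (0.0052), and Cntfr, a receptor outside the 10 chosen genes, was higher by 0.18. In the reference annotation Lif and Osm are neighbours on chromosome 11, and Lifr and Osmr on chromosome 15, each with 0 protein-coding genes starting between them. Lif and Osm were both highest in nonirradiated tumor 3. Lifr was lowest in preirradiated tumor 1 and Osmr in preirradiated tumor 4.

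**Figure D4:**
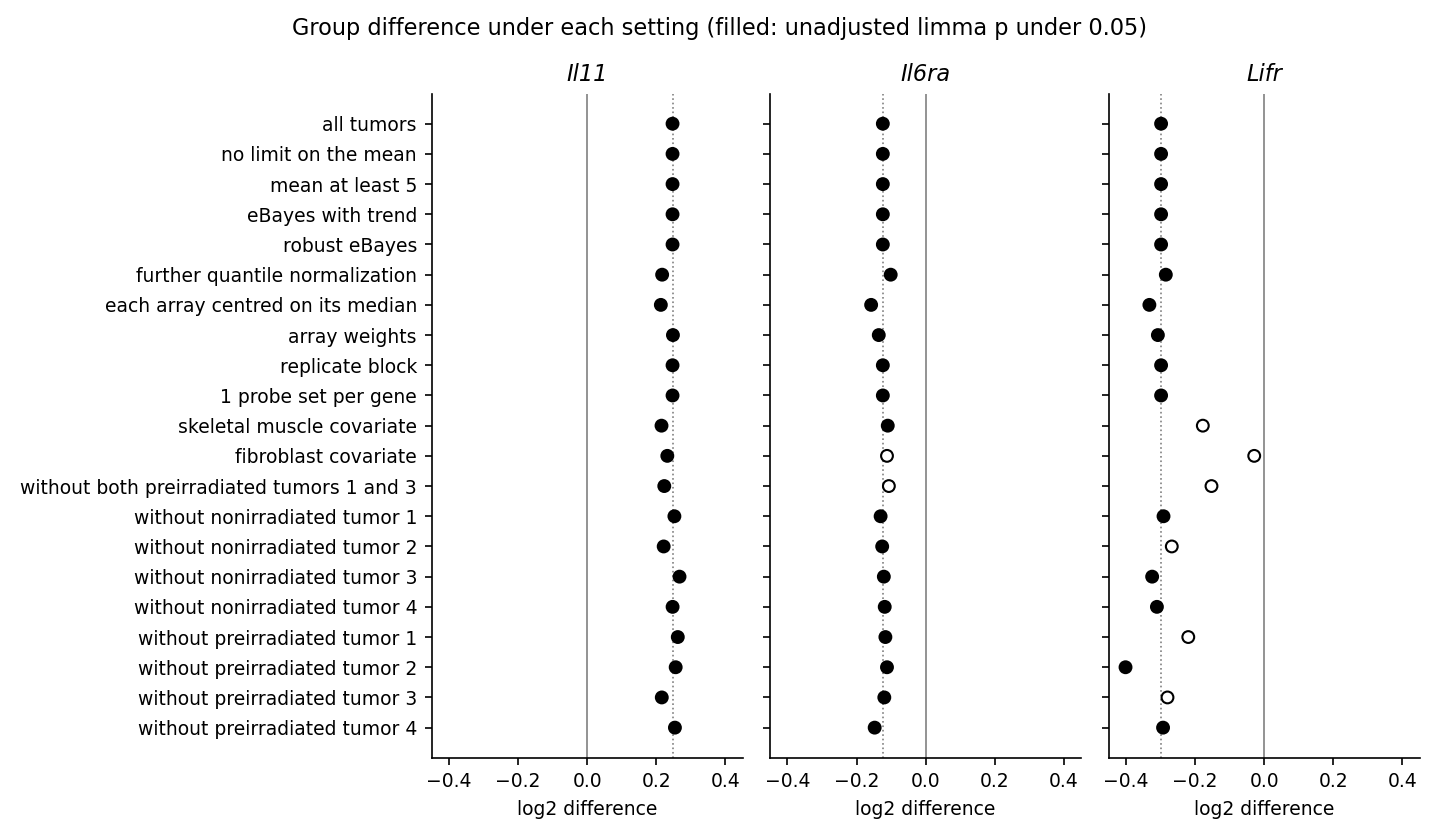
Log2 difference of Il11, Il6ra and Lifr (x axes) with all tumors and under each other setting (rows), filled where the unadjusted limma p was under 0.05. Il11 stays between 0.21 and 0.27 and filled throughout, whereas Lifr ranges from -0.40 to -0.029.

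Pairs of genes were then compared over the 8 tumors. Of 36 pairs of genes 19 had a positive Pearson r, and 0 passed adjustment over the pairs in an exact permutation test (smallest adjusted p = 0.532), with 2 at an unadjusted p under 0.05. Il11 and Il6ra ran against each other (Pearson r = -0.82, exact permutation p = 0.0219, adjusted p = 0.532; Spearman rho = -0.69, exact permutation p = 0.0694, adjusted p = 0.598). The value was -0.82 without preirradiated tumor 3 and nonirradiated tumor 2, but -0.00094 for deviations from the group means (exact permutation p within groups = 0.998). Clcf1 and Osmr also ran opposite (Pearson r = -0.70, exact permutation p = 0.0354, adjusted p = 0.532; Spearman rho = -0.60, exact permutation p = 0.132, adjusted p = 0.680). This fell to r = -0.30 without preirradiated tumors 4 and 2 and so rests on them. Deviations from the group means gave 2 other pairs at an unadjusted p under 0.05 and 0 after adjustment. These were Clcf1 and Il6ra (r = 0.88, exact permutation p within groups = 0.0399, adjusted p = 0.746) and Osm and Lifr (r = -0.79, exact permutation p within groups = 0.0451, adjusted p = 0.746). For Clcf1 and Il6ra r was 0.29 in nonirradiated and 0.95 in preirradiated tumors. Over all 8 tumors it was -0.063, and -0.65 without preirradiated tumors 4 and 2. For Osm and Lifr r was -0.61 in nonirradiated and -0.89 in preirradiated tumors, and -0.46 over all 8.

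The genes most like each family member over the 8 tumors were taken from 19928 other genes by Pearson r, as a description with no test, because the highest of so many values is large by selection. Il11 was most like the ubiquitin protease Usp4 (r = 0.96), the urate oxidase Uox (r = 0.95) and the carboxypeptidase-like Cpxm2 (r = 0.94). Lif was most like Akr1c12 (r = 0.97), Mettl7b and Snapc4, and Clcf1 most like Snora31 (r = 0.99), Syne2 and Akr1cl. Osm was most like Saa3 (r = 0.97), an acute-phase serum amyloid, followed by Prph and Ptges3l. Saa3 measured 7.92, 8.20, 9.15 and 8.33 in nonirradiated and 8.83, 6.82, 8.74 and 8.53 in preirradiated tumors. Its highest and lowest tumors, nonirradiated 3 and preirradiated 2, were those of Osm. Il6 was most like Muc1 (r = 0.94), Ptpn21 and Slc25a12, at a signal near background. Il6ra was most like Pawr (r = 0.98), Igfbp4 and Dbt, and Lifr most like Tmem176b (r = 0.98), Polr1d and Znrd2. Osmr was most like Olfr8 (r = 0.98), H2-Ke6 and 2210016L21Rik, and Il6st most like Sin3a (r = 0.99), Zdhhc5 and Mapk1ip1l. Some of these genes were themselves near background. Olfr8 is an olfactory receptor gene, at 4.34 in nonirradiated and 4.31 in preirradiated tumors. Uox, Akr1c12, Akr1cl and Ptges3l had group means under 5.44, the 95th percentile of the olfactory and vomeronasal receptor genes.

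A further 8 family genes were measured, 7 with a lower and 1 with a higher mean in preirradiated tumors. Il27ra, the receptor partner of gp130 for IL-27, measured 6.18, 6.18, 6.04 and 6.18 in nonirradiated and 5.87, 6.12, 6.01 and 5.88 in preirradiated tumors. It differed by -0.17 (SE 0.066, adjusted p = 0.822, exact permutation p = 0.0571), with preirradiated tumor 2 inside the nonirradiated range, and kept its unadjusted call in 3 of 8 fits that left out a tumor (without nonirradiated 3, preirradiated 2 or preirradiated 3). Cardiotrophin 1 (Ctf1) differed by -0.19 (exact permutation p = 0.0857) and Cntfr, the ligand-binding chain for CNTF and Clcf1, by 0.18 (exact permutation p = 0.257). Leaving out a tumor gave -0.26 (without nonirradiated 4) to -0.14 (without nonirradiated 2) for Ctf1 and 0.096 (without preirradiated 2) to 0.26 (without nonirradiated 4) for Cntfr. Ctf1 passed the unadjusted limit without nonirradiated 4 or preirradiated 2, and Cntfr without nonirradiated 4. Ebi3 and Il27, which together form IL-27, differed by -0.14 and -0.012. Ebi3 differed by -0.24, past the unadjusted limit, without nonirradiated 3 and by -0.057 without nonirradiated 1. Il31 and its receptor Il31ra differed by -0.012 and -0.042, and neuropoietin (Ctf2) by -0.042. Cntf, which had a probe set only in common with another gene, and Il11ra2, a near copy of Il11ra1, are not analysed here.

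Downstream of the receptors, 13 of 14 genes of the signal relay were measured, 5 with a higher and 8 with a lower mean, and 1 passed an unadjusted p of 0.05. That gene was the adaptor Shc1, at -0.13 (SE 0.049, adjusted p = 0.812, exact permutation p = 0.0857), which kept this call in 3 of 8 fits that left out a tumor (without nonirradiated 2, preirradiated 2 or preirradiated 3). Stat5a differed by -0.083 and did not pass. It differed by -0.046 without nonirradiated 4 and by -0.12, past the unadjusted limit, without nonirradiated 1. Stat3, the main transcription factor of the pathway, measured 10.72, 10.76, 10.84 and 11.02 in nonirradiated and 10.91, 10.93, 10.87 and 10.85 in preirradiated tumors; these values were chosen after they were seen. Its difference ran from 0.017 without nonirradiated 1 to 0.12 without nonirradiated 4, where it passed the unadjusted limit. The 9 brakes gave 0 genes past the unadjusted limit. Socs1 differed by -0.16 and Cish by -0.14, and Socs3, added after its value was seen, by -0.029 (95% interval -0.21 to 0.15). Socs1 differed by -0.069 without preirradiated 1, by -0.044 without preirradiated 1 and 3, and by -0.25, past the unadjusted limit, without nonirradiated 4. Cish differed by -0.074 without preirradiated 4 and by -0.19, past that limit, without preirradiated 2. Socs3 ran from -0.074 without preirradiated 4 to 0.034 without nonirradiated 3.

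Among 25 genes commonly driven by STAT3, 8 had a higher and 17 a lower mean, and 1 higher and 2 lower passed the unadjusted limit (12.0%, against 5.8% of all probe sets). Timp1, an inhibitor of metalloproteases, measured 10.14, 10.05, 10.60 and 10.23 in nonirradiated and 10.74, 10.54, 10.86 and 10.64 in preirradiated tumors. Nonirradiated tumor 3 lay above preirradiated tumor 2, and all other tumors followed their group. Timp1 differed by 0.44 (SE 0.12, adjusted p = 0.736, exact permutation p = 0.0571) and passed the study's filter, as 0.642% of all probe sets did. Leaving out a tumor gave 0.37 to 0.55, and Timp1 missed the filter without nonirradiated 2 (0.37) or preirradiated 3 (0.38). Without preirradiated tumors 1 and 3 it differed by 0.34 and missed the unadjusted limit. Timp1 is also a product of fibroblasts, whose markers were higher in preirradiated tumors, and their part in its difference was not tested. The oncogene Myc differed by -0.16 (adjusted p = 0.813), a call lost without nonirradiated 1, 2 or 3 or preirradiated 2. The adhesion molecule Icam1, which is outside the naming rule, differed by -0.19 (adjusted p = 0.828), a call lost without nonirradiated 1, 3 or 4 or preirradiated 1 or 2. The angiogenic factor Vegfa differed by 0.29 and did not pass. It differed by 0.21 without preirradiated 1 and by 0.40, past the unadjusted limit, without nonirradiated 3. The list median was -0.027.

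Acute-phase genes, 18 in number and driven in liver by IL-6 and its relatives, had 12 higher and 6 lower means with a median of 0.0080. The protease inhibitor Serpina3n alone passed the unadjusted limit and the study's filter, at 1.46 (SE 0.60, adjusted p = 0.840, exact permutation p = 0.114). It measured 6.83, 7.62, 8.30 and 7.24 in nonirradiated and 10.03, 7.66, 10.06 and 8.09 in preirradiated tumors. The high values were those of preirradiated tumors 1 and 3, which carried the muscle signal, and without them the difference was 0.38. It missed the filter without nonirradiated 1, 2 or 4 or preirradiated 1 or 3, down to 1.09 without preirradiated 3. Haptoglobin (Hp) was 9.66 in preirradiated tumor 1 and 6.89 to 7.82 in the other tumors, and differed by 0.71 (exact permutation p = 0.286), or 0.15 without that tumor. Itih4 differed by 0.16, by 0.077 without preirradiated 1 and by 0.054 without preirradiated 1 and 3.

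Of 12 genes known to induce or to accompany induction of these ligands, 11 were measured and 0 passed the unadjusted limit of limma. Jun, a subunit of AP-1, differed by -0.12 (adjusted p = 0.851), and Fosl1, another subunit, by -0.22 (adjusted p = 0.874). Tgfb1, a known inducer of IL-11, differed by -0.086 (adjusted p = 0.861), and Ptgs2, the inducible cyclooxygenase, by 0.28 (adjusted p = 0.946). Without preirradiated tumors 1 and 3, Jun differed by -0.18 and Fosl1 by -0.35, both past the unadjusted limit, and Ptgs2 by 0.021. Leaving out 1 tumor took Fosl1 to -0.10 without preirradiated 2 and Ptgs2 to 0.13 without preirradiated 1 or 0.43 without nonirradiated 3. Jun passed the unadjusted limit without preirradiated 1 (-0.17) and Tgfb1 without nonirradiated 1 (-0.11).

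**Figure D5:**
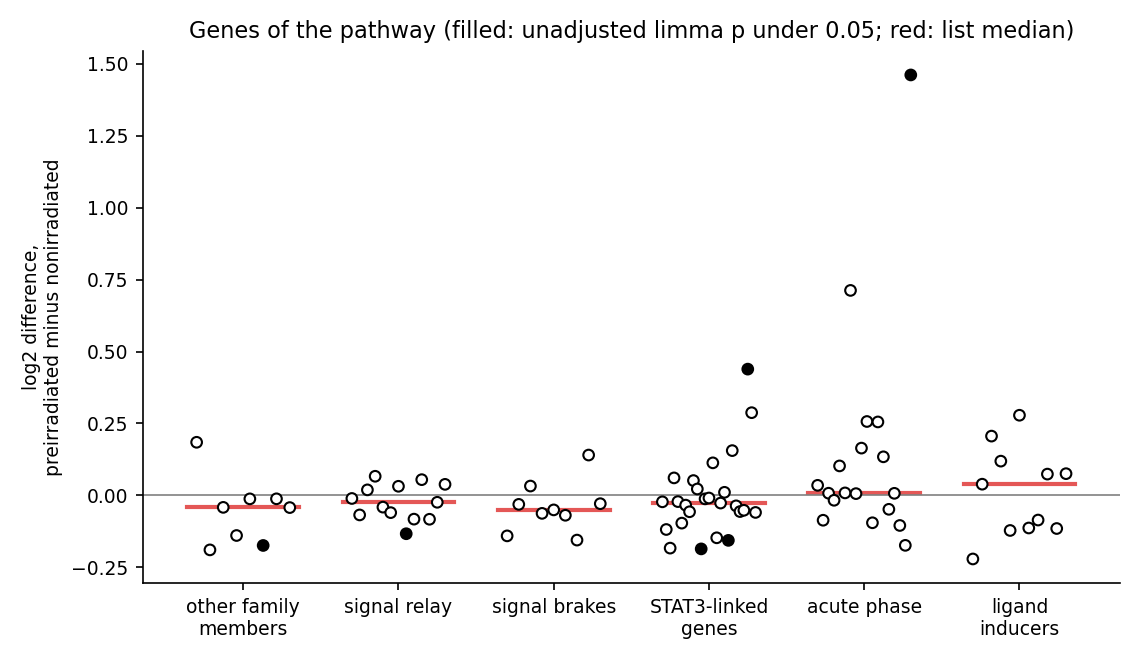
Log2 difference (y axis) of every measured gene in 6 lists of the pathway (x axis), filled where the unadjusted limma p was under 0.05, with the list median in red. Medians lie between -0.051 and 0.039, and the highest points are Serpina3n at 1.46 and Hp at 0.71.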

How the data were processed

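Total RNA of 8 tumors was hybridized to Affymetrix Mouse Gene 1.0 ST arrays. The deposited values are log2 RMA signals that the authors made with the affy package, per the series' design text. The submitters' processing notes name R 2.15.3 for this step. RMA corrects background, makes arrays alike by quantile normalization and summarises probes on the log2 scale, so changes near background are compressed and changes in total RNA cannot be seen. The chip description file and genome build are not given in the sources used here.

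Samples were grouped by title. All 34738 probe sets with a mean of at least 4.0 were fitted (lmFit and eBayes, limma 3.58.1, R 4.3.3, two-sided), with Benjamini-Hochberg adjustment over all of them; 22 were left out. The study's filter was an unadjusted p of at most 0.05, a change of at least 0.4 in either direction and a mean of at least 4.0. Gene names came from the platform annotation: 21640 probe sets had 1 symbol, 1321 several and 11799 none. Intervals are at 95% and use limma's moderated SE. The members and gene lists were chosen with earlier results of these data known. All family genes are named, and from each pathway list up to 4 genes, 2 by p and 2 by size of change. Of each member the 3 most alike genes are named. The fit was tested on simulated data. Exact permutation p-values use all 70 assignments of 8 tumors to 4 and 4. Pair tests used all orders of the 8 tumors, and those on deviations from group means used all orders within each group. Ranks for Spearman rho came from scipy 1.17.1. Alternatives covered the expression limit, variance model, normalization, array weights, the replicate number as a block, 1 probe set per gene, covariates and left-out tumors.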

Additional observations from a re-analysis of the deposited data

How the results depend on the processing

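With 4 tumors a group, the number of arrays limits precision, and genes near background, Il6 above all, are bounded only on a compressed scale. The count of the 9 genes past the adjusted threshold was 0 under all alternatives, leaving out each tumor included. The count past an unadjusted p of 0.05 was 3, and 2 (Il11 and Il6ra) with the muscle covariate. It was 1 (Il11) with the fibroblast covariate or without both preirradiated tumors 1 and 3, and leaving out 1 tumor gave 2 to 4. The count past the study's filter was 0, and 2 with a change limit of 0.2; leaving out 1 tumor gave 0 to 1. The pathway list count was 6 with all tumors, 5 without preirradiated tumors 1 and 3, and 3 to 7 when 1 tumor was left out (3 without preirradiated 1, 4 without nonirradiated 1 or nonirradiated 2). It was 9 with median centring, array weights or 1 probe set per gene and 5 to 8 under the other settings. The 6 lists held 8, 13, 9, 25, 18 and 11 measured genes. The share of all probe sets past the same limit also differed by setting. It was 5.8% with all tumors, 8.42% with median centring, 7.25% with array weights and 6.26% with 1 probe set per gene. With the fibroblast covariate it was 4.12%, where the list count was 8. Leaving out 1 tumor turned the sign of differences near 0: Il6 ran from -0.028 to 0.019, Osm from -0.080 to 0.052 and Il6st from -0.12 to 0.0052. No other difference of the 9 changed sign under any alternative. A mean limit of 5 removed Il6, and no member had a second probe set to try. The replicate number as a block gave 3 genes past the unadjusted limit, with Il11 at 0.25, and took the count of all probe sets from 2015 to 1518. The numbers do not pair the tumors: same-numbered tumors deviated from their group means with correlations of -0.29 to -0.075. Median centring shifted the median of all probe sets to -0.035. No gene was flagged for a tumor far from the other 3 in its group (0 of 18 groups checked).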
